A study of Mus musculus with 6 samples.

Results

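Collagen genes other than those of type IV, the sheet-forming collagen of basement membranes, were compared between sorted muscle cells and sorted epithelial cells of the mouse trachea before birth. Members were all rows of the count table whose symbol has the form of a collagen chain gene, with Col4a1 to Col4a6 left out. The rule found 38 of 23478 genes, and all 38 passed the filter on low counts. The samples were 3 libraries of muscle cells and 3 of epithelial cells from tracheas at embryonic day 13.5. All embryos, in both groups, carried floxed Bmp4 alleles and a fluorescent reporter of gamma smooth muscle actin (gamma SMA eGFP). The titles call all 6 samples controls, and the genotype names no Cre. Muscle cells were collected by the reporter's green fluorescence and epithelial cells by an antibody to the surface protein Epcam. The muscle group is thus whatever cells carried the reporter, and neither the labels nor the file headers say how many embryos were pooled or whether replicates came from separate litters, so p-values measure the spread between these libraries, which may be technical.

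Collagens are trimeric proteins whose chains wind into a triple helix built on short repeats that each hold a glycine. Fibrillar collagens (types I, III and V, and in cartilage II and XI) assemble into the fibres that carry tension. FACIT collagens, which have interrupted helices, sit on the surface of those fibres; type VI forms beaded filaments, type VIII hexagonal networks and type VII anchoring fibrils, and several types stay in the plasma membrane. In the airway wall fibroblasts and smooth muscle cells deposit the fibrillar matrix, and chondrocytes of the tracheal rings make types II, IX and XI. The label of outside the basement membrane fits the rule and not every protein: Col7a1, Col15a1, Col17a1 and Col18a1 encode collagens of the basement membrane zone and are kept here.

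The promoters of 4 members are shown, some chosen by average level and the others by fold change. Col3a1 and Col1a2 are the members called higher in muscle with the highest average counts for which a sequence was at hand, and Col10a1 and Col5a3 had the most negative fold changes, neither past the threshold. Each of the latter 2 changed sign in 1 alternative fit, and Col10a1 had only 4 to 29 counts per library. Col1a1 would have been chosen too. Each run is the 250 bases before the RefSeq start (GRCm38.p6, the mm10 assembly), 5′ to 3′ on the gene's strand. Capitals mark CCAAT (the CCAAT box), TATAAA (the TATA box), GGGCGG (the GC box) and ACAAT (a core bound by Sox factors) on either strand.
Col3a1, chr1:45311288-45311537, plus strand: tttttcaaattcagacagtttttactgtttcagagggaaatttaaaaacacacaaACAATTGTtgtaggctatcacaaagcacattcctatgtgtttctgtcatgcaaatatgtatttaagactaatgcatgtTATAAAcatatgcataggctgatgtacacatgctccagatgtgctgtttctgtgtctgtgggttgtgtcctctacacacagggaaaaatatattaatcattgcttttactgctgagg
Col1a2, chr6:4505368-4505617, plus strand: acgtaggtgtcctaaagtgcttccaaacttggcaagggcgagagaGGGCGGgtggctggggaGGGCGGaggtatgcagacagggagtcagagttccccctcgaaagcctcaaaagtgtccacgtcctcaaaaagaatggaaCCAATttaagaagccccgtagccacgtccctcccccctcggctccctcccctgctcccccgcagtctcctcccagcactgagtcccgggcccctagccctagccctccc
Col10a1, chr10:34389731-34389980, plus strand: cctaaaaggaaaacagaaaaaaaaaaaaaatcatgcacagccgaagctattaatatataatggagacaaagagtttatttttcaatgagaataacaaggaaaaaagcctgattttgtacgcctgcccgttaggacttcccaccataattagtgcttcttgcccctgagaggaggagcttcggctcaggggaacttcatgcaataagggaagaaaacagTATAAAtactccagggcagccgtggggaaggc
Col5a3, chr9:20815068-20815317, minus strand: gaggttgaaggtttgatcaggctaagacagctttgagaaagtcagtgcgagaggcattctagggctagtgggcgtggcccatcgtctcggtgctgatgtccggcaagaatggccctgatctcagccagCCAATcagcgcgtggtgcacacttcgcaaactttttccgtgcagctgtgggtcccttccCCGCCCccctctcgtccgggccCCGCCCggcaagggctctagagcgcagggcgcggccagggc

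The 2 genes that moved together shared none of these letters. Col3a1 holds 1 TATAAA, 117 bases before the start, and 2 overlapping matches to ACAAT. Col1a2 holds 1 CCAAT, 109 bases before the start, and 2 GGGCGG. Of the other pair, Col10a1 holds 1 TATAAA, 32 bases before the start, and Col5a3 holds 1 CCAAT and 2 GGGCGG. RefSeq windows were matched for 30 of the 38 members, 12 of them called higher in muscle. For members the first start along the strand was used where a gene had more than 1. The windows of all genes keep every start, so the shares of the 2 are not on the same unit. CCAAT was found in 4 of those 12 and in 5 of the other 18, against 33.9% of the 32851 windows of all genes. TATAAA was found in 1 of 12 and 4 of 18, against 12.4%. GGGCGG was found in 8 of 12 and 10 of 18, against 32.7%. ACAAT was found in 1 of 12 and 1 of 18, against 27.7%. These are matches of letters and are given as a description.

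Muscle had the higher level for 15 of the 38 collagen genes, and epithelium for none, at an adjusted p under 0.05 (edgeR's quasi-likelihood test, Benjamini-Hochberg adjustment over all 19375 tested genes). Over all tested genes 6.58% were called higher in muscle and 4.11% higher in epithelium. At an unadjusted p under 0.05 (edgeR) there were 19 members, and 4197 of the 19375 tested genes. DESeq2 called 18 members higher in muscle and 0 in epithelium, with 18.3% of all tested genes called in either direction. The median log2 fold change of muscle over epithelium was 1.89 over the members and -0.10 over all tested genes. Every muscle library was above every epithelial library for 19 members, and below for none. Among all tested genes the groups did not overlap in these ways for 16.4% and 10.5%. Summed over the members, the level was 12309, 14178 and 16461 CPM (counts scaled to a common library size) in muscle replicates 1 to 3. It was 1398, 3530 and 1029 CPM in epithelium replicates 1 to 3. In bulk samples fewer cells of a type and less RNA per cell cannot be told apart.

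**Figure D1:**
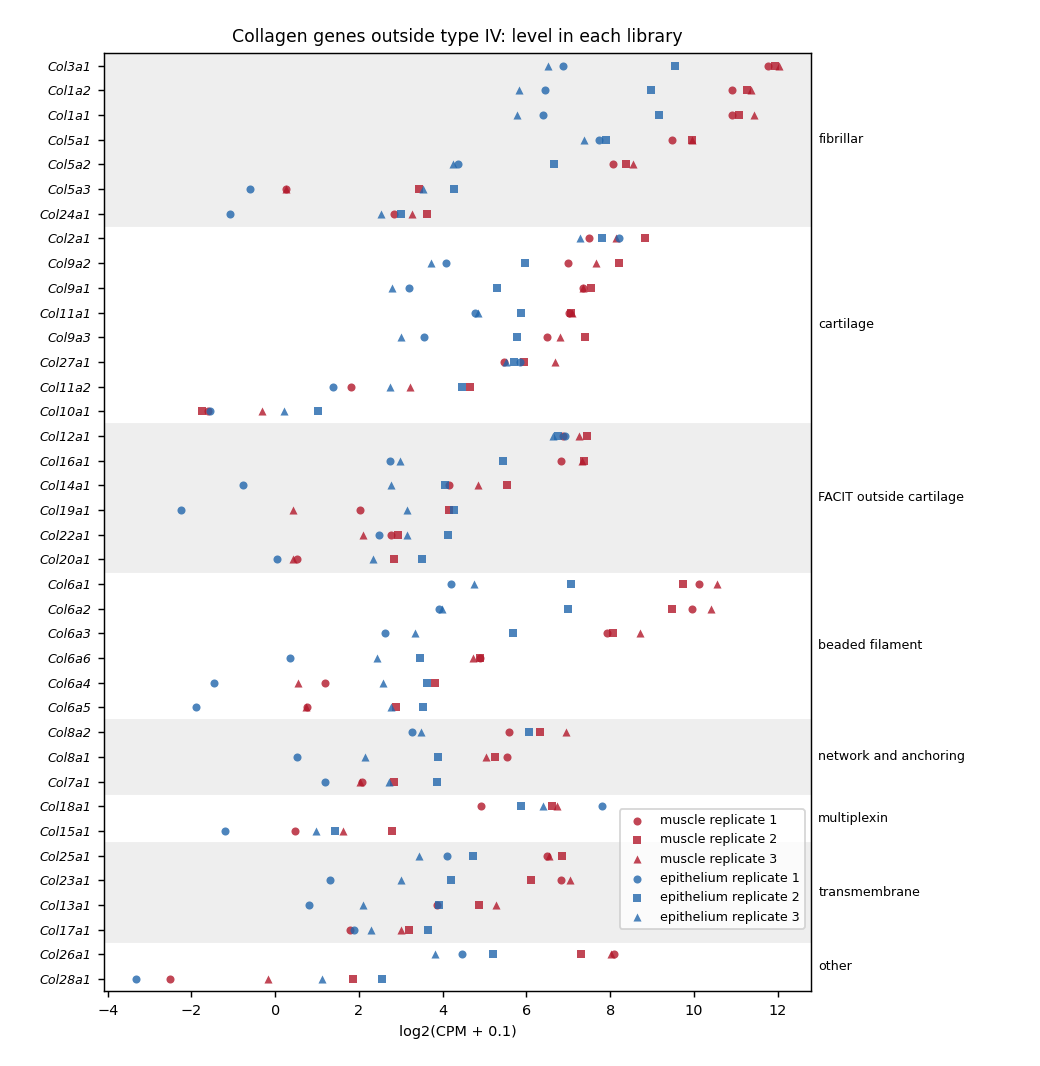
Level of each collagen gene in each library, as log2 of CPM plus 0.1, with red for muscle, blue for epithelium and the symbol for the replicate number. For Col3a1 the muscle libraries sit at 3491 to 4194 CPM and the epithelial libraries at 91.3 to 745 CPM, with epithelium replicate 2 nearest to muscle. For Col2a1 and Col12a1 the groups overlap.

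Several libraries stood apart, and the counts depend on them and on the scaling. With library size alone as the scaling, 8 members were called higher in muscle, and 12.8% of all tested genes were called in either direction. The share of all calls that were higher in muscle was 42.0% in place of 61.5%. The calls of Col1a1, Col1a2, Col3a1, Col5a2, Col9a2, Col11a1 and Col16a1 were lost there (adjusted p from 0.051 to 0.096, edgeR). Total counts ranged from 11847432 (epithelium replicate 2) to 54848820 (epithelium replicate 1). Receptor genes of olfactory and vomeronasal neurons summed to 871, 1792 and 627 CPM of the library total in muscle replicate 2 and epithelium replicates 2 and 3, and to 6.47 to 36.5 CPM in the other 3 libraries. In the 3 libraries with few such counts (muscle replicates 1 and 3, epithelium replicate 1) the median log2 fold change was 3.08 over the members. It was 0.02 over all tested genes. In that fit the lone epithelial library is assumed to vary like the muscle ones. An identifier in the column headers can be read as a date, which was day 3 of month 9 for muscle and epithelium replicate 2 and day 16 for the other 4 libraries. The 4 libraries of day 16 gave 20 members, with 17.6% of all tested genes called in either direction. Day 3, with 1 library per group, allowed no test. The count was 7 without muscle replicate 3 or without epithelium replicate 3, 8 without muscle replicate 1 and 9 without muscle replicate 2. Over all genes the share called in either direction was 10.7% with all libraries and 5.78% to 12.8% without 1 of them.

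Of the 7 fibrillar genes outside cartilage, 5 were higher in muscle, and Col24a1 and Col5a3 were not called. Their median log2 fold change was 2.80. Col3a1 encodes the only chain of type III collagen, the fibre of pliable tissues. It had 3491, 3949 and 4194 CPM in muscle replicates 1 to 3 and 117, 745 and 91.3 CPM in epithelium replicates 1 to 3. The groups did not overlap, and epithelium replicate 2 held far more than the other epithelial libraries. In edgeR's test this was 3.61 ± 0.78 (SE) as a log2 fold change, with an adjusted p of 0.019. Col1a1 and Col1a2 encode the chains of type I collagen, the main fibre of most connective tissue. Col1a1 had 1922, 2164 and 2773 CPM in muscle and 83.5, 570.0 and 54.9 CPM in epithelium (log2 fold change 3.28 ± 0.82, adjusted p = 0.036, edgeR). Col1a2 had 1920, 2470 and 2628 CPM in muscle and 87.5, 502 and 56.6 CPM in epithelium (log2 fold change 3.44 ± 0.77, adjusted p = 0.022, edgeR). The type I and type III chains thus had the same order of libraries within the epithelium, with replicate 2 highest and replicate 3 lowest.

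Type V collagen is a minor partner in type I fibres that sets where they start. Col5a1 had 709, 998 and 999 CPM in muscle and 211, 238 and 167 CPM in epithelium. Its epithelial libraries lay close together, and its log2 fold change of 2.13 ± 0.27 was the smallest of the 5 fibrillar calls with the lowest adjusted p among them (0.0015, edgeR). Col5a2 had 267, 331 and 371 CPM in muscle and 20.4, 100.3 and 18.9 CPM in epithelium (log2 fold change 2.80 ± 0.63, adjusted p = 0.022, edgeR). Its gene is a neighbour of Col3a1 on chromosome 1 (GENCODE M21 on GRCm38, Col3a1 at 45311538 to 45349706 on the plus strand and Col5a2 at 45374321 to 45503282 on the minus strand).

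Epithelium replicate 2 sets the size of these folds. Without it the log2 fold change was 4.98 for Col1a1, 4.95 for Col1a2, 5.16 for Col3a1 and 3.99 for Col5a2, and 2.20 for Col5a1, which moved little. The call of Col5a1 held in each of the 6 fits that left out a library. That of Col1a1 was lost without any one of the 3 muscle libraries or epithelium replicate 1 or 3 (adjusted p up to 0.13, edgeR). Col1a2 lost it without any one of the muscle libraries or epithelium replicate 1 (up to 0.082). Col3a1 lost it without any one of the muscle libraries (up to 0.068), and Col5a2 without any of those or epithelium replicate 3 (up to 0.072). Col24a1, a fibrillar chain gene of low level, had 7.0, 12.3 and 9.48 CPM in muscle and 0.37, 7.95 and 5.63 CPM in epithelium (log2 fold change 1.05 ± 0.90, adjusted p = 0.69, edgeR). Col5a3 had 1.10, 10.7 and 1.09 CPM in muscle and 0.56, 19.05 and 11.5 CPM in epithelium. It was high in the 3 libraries with many receptor counts and low in the other 3, a pattern whose part in its fold change was not tested.

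**Figure D2:**
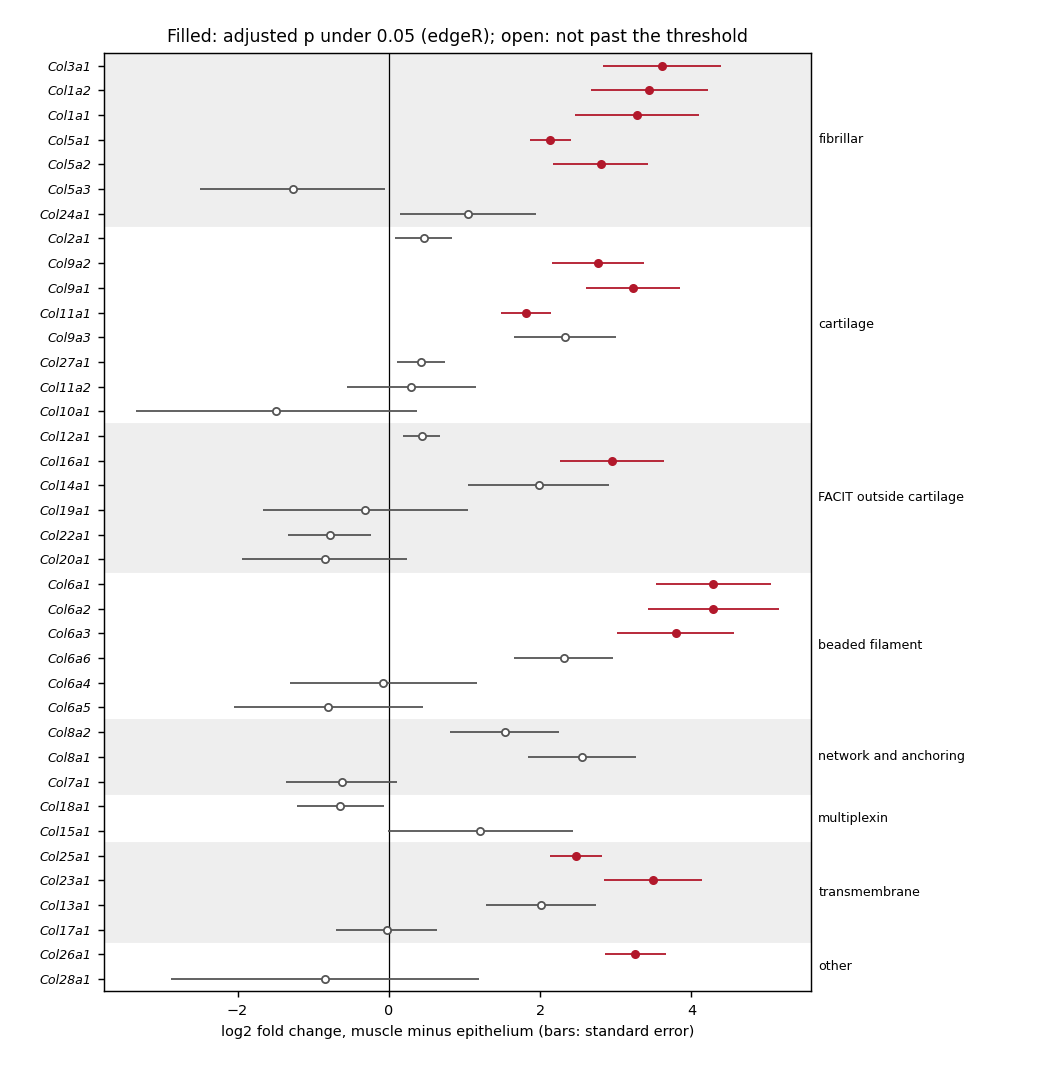
Log2 fold change of muscle over epithelium for each collagen gene, with standard errors and filled points at an adjusted p under 0.05. All 15 filled points lie to the right of 0, from 1.81 (Col11a1) to 4.29 (Col6a1 and Col6a2). Standard errors are widest for genes of low level such as Col28a1 and Col10a1.

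Of the 8 cartilage collagen genes, 3 were higher in muscle and 5 were not called, with a median log2 fold change of 1.13. Col2a1 encodes the chain of type II collagen, the main fibre of cartilage. It had 179, 459 and 284 CPM in muscle and 294, 223 and 154 CPM in epithelium. The groups overlapped (log2 fold change 0.46 ± 0.38, adjusted p = 0.66, edgeR), and the sign changed among the alternatives. Col9a1, Col9a2 and Col9a3 encode the 3 chains of type IX collagen, which coats type II fibres. Col9a1 had 163, 185 and 164 CPM in muscle and 9.0, 39.4 and 6.84 CPM in epithelium (log2 fold change 3.23 ± 0.63, adjusted p = 0.011, edgeR). Col9a2 had 128, 295 and 203 CPM in muscle and 16.7, 62.6 and 13.2 CPM in epithelium (2.77 ± 0.61, adjusted p = 0.020). Col9a3 had 90.1, 168 and 112 CPM in muscle and 11.6, 54.7 and 7.96 CPM in epithelium. Here too each muscle library was above each epithelial one, yet the gene was not called (2.33 ± 0.68, adjusted p = 0.064, edgeR). It was called with the header date as a term (adjusted p = 0.0070, edgeR). With the replicate number as a block it was called too (0.026), but those numbers were not taken as pairs. Tcfl5, a gene on the opposite strand, covers 6.07% of the exon bases of Col9a3 in GENCODE M21.

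Col11a1, a chain of type XI collagen, which lies inside the type II fibre, had 129, 134 and 136 CPM in muscle and 27.1, 58.5 and 28.4 CPM in epithelium. Its muscle libraries were nearly level, and the log2 fold change was 1.81 ± 0.33 (adjusted p = 0.0084, edgeR). Its partner Col11a2 had 3.42, 25.2 and 9.20 CPM in muscle and 2.51, 21.8 and 6.61 CPM in epithelium (0.30 ± 0.85, adjusted p = 0.94). Col27a1, a fibrillar chain of cartilage, had 44.1, 61.8 and 102 CPM in muscle and 57.9, 51.9 and 45.6 CPM in epithelium (0.42 ± 0.32, adjusted p = 0.60). Col10a1, the collagen of hypertrophic chondrocytes, was at 0.20 to 0.71 CPM in muscle and 0.24 to 1.94 CPM in epithelium, from 4 to 29 counts per library. No difference in Col10a1 was detected (-1.49 ± 1.85, adjusted p = 0.84, edgeR). Without a library Col9a1 kept its call in all 6 fits, and Col11a1 lost it without epithelium replicate 3 (adjusted p = 0.0502, edgeR). Col9a2 lost it without muscle replicate 2 or 3 or epithelium replicate 1 or 3 (up to 0.070), and Col9a3 gained one without epithelium replicate 2 (0.0011).

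Chondrogenic markers were set beside these genes. Of 11 such markers 2 were called, both with the higher level in muscle, where 6.58% of all tested genes were called in that direction. Sox9, the transcription factor gene that drives Col2a1, Col9a1 and Col11a2 in cartilage, had 307, 395 and 673 CPM in muscle and 100.1, 187 and 55.5 CPM in epithelium (log2 fold change 2.01 ± 0.47, adjusted p = 0.026, edgeR). Matn4, a matrilin gene, had 95.1, 205 and 143 CPM in muscle and 7.68, 21.6 and 4.06 CPM in epithelium (3.75 ± 0.61, adjusted p = 0.0049). Sox5 had means of 70.4 CPM in muscle and 62.2 CPM in epithelium, and Sox6 of 35.4 and 30.6 CPM, neither called. Acan, the aggrecan gene, had 2.96, 14.7 and 9.02 CPM in muscle and 0, 9.09 and 1.61 CPM in epithelium. Matn1 was at 0 to 1.45 CPM in muscle and 0.037 to 4.14 CPM in epithelium, and Comp at 0 to 2.0 CPM and 1.17 to 2.94 CPM. As a median over the list, levels were 53.3%, 165% and 74.8% of the muscle mean in muscle replicates 1 to 3 and 26.8%, 102% and 90.5% in those of epithelium. Genes of low level, such as Matn1 and Comp, weigh in this median as much as Sox9 does. It was highest in muscle replicate 2 and epithelium replicates 2 and 3, the libraries with many receptor counts. Sox9 and Matn4, the 2 called genes, were instead lowest of all libraries in epithelium replicate 3. Muscle replicate 2 was highest in this median, as it was for Col2a1, Col9a2 and Col9a3. Matn4 was highest there too, while Sox9 and the sum of the list were highest in muscle replicate 3. The list summed to 513 to 943 CPM in muscle and 187 to 329 CPM in epithelium. Their part in the levels of Col9a1, Col9a2 and Col11a1 was not tested.

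Of the 6 FACIT genes outside cartilage, only Col16a1 was called, higher in muscle, and the median log2 fold change was 0.06. Col16a1 had 114, 166 and 161 CPM in muscle and 6.64, 43.0 and 7.81 CPM in epithelium (log2 fold change 2.95 ± 0.69, adjusted p = 0.026, edgeR). Without any one of the muscle libraries or epithelium replicate 3 its call was lost (up to 0.099), and without epithelium replicate 2 its log2 fold change was 4.31. Col12a1, which binds type I fibres, had 117, 176 and 152 CPM in muscle and 121, 108 and 99.5 CPM in epithelium. The groups overlapped through the highest epithelial library (0.43 ± 0.24, adjusted p = 0.38). Col14a1, its close relative, had 17.6, 46.4 and 28.6 CPM in muscle and 0.48, 16.6 and 6.72 CPM in epithelium. These did not overlap, but muscle replicate 1 was within about 1 CPM of epithelium replicate 2 (1.98 ± 0.93, adjusted p = 0.27). Col19a1, Col20a1 and Col22a1 had group means of 3.19 to 10.6 CPM and fold changes below 0 that were not called (adjusted p from 0.56 to 0.96, edgeR). That of Col22a1 was -0.78 ± 0.55, larger than its SE, and those of Col19a1 and Col20a1 were smaller than theirs. Col19a1 had 17.6, 19.3 and 8.83 CPM in muscle replicate 2 and epithelium replicates 2 and 3, the libraries with many receptor counts, and 0.11 to 3.95 CPM in the others.

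The 3 classical chain genes of type VI collagen, which surrounds cells with beaded filaments, were all higher in muscle. They had the 3 largest fold changes of the collagen genes. Col6a1 had 1106, 851 and 1512 CPM in muscle and 18.2, 133 and 26.9 CPM in epithelium (log2 fold change 4.29 ± 0.76, adjusted p = 0.0076, edgeR). Col6a2 had 986, 712 and 1370 CPM in muscle and 14.9, 127 and 15.7 CPM in epithelium (4.29 ± 0.87, adjusted p = 0.014). Both genes lie on chromosome 10 on the minus strand (GRCm38, 76708792 to 76726168 and 76595762 to 76623630). Col6a3, the gene of the large chain, had 242, 267 and 416 CPM in muscle and 6.08, 51.5 and 9.99 CPM in epithelium (3.79 ± 0.77, adjusted p = 0.014). Muscle replicate 3 was highest and epithelium replicate 2 was nearest to muscle for all 3. Without epithelium replicate 2 their log2 fold changes were 5.64, 6.002 and 5.24. Col6a1 kept its call in the 6 fits that left out a library, and Col6a2 and Col6a3 lost it without muscle replicate 1 or 3 or epithelium replicate 3 (adjusted p up to 0.062 and 0.069, edgeR).

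The other type VI genes, Col6a4, Col6a5 and Col6a6, lie side by side on chromosome 9 and encode chains that can take the place of that of Col6a3. Col6a6 had 29.6, 29.5 and 26.4 CPM in muscle and 1.17, 11.0 and 5.33 CPM in epithelium. Muscle was above epithelium in every library, and the gene was just outside the threshold (2.31 ± 0.65, adjusted p = 0.056, edgeR). Without epithelium replicate 1 or 2 it passed (0.0094 without replicate 2), as it did with the header date as a term (0.043) but not with the replicate number as a block (0.072). Col6a4 (-0.07 ± 1.24) and Col6a5 (-0.80 ± 1.25) were not called (adjusted p = 0.99 and 0.89). Col6a4 had 13.9, 12.2 and 5.86 CPM in muscle replicate 2 and epithelium replicates 2 and 3, and 0.26 to 2.17 CPM in the other libraries. Col6a5 showed the same split.

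Of the 3 network and anchoring genes none was called, with 1 at an unadjusted p under 0.05, and DESeq2 called Col8a1. Col8a1 and Col8a2 encode the chains of type VIII collagen, a network collagen of vessel walls. Col8a1 had 46.4, 37.9 and 32.4 CPM in muscle and 1.34, 14.6 and 4.36 CPM in epithelium, without overlap (log2 fold change 2.55 ± 0.72, adjusted p = 0.056, edgeR). It passed without epithelium replicate 1 or 2 (0.0019 without replicate 2) and with the header date as a term (0.033), but not with the replicate number as a block (0.081). Col8a2 had 48.2, 79.6 and 123 CPM in muscle and 9.48, 67.0 and 11.1 CPM in epithelium. Epithelium replicate 2 was above muscle replicate 1 (1.53 ± 0.73, adjusted p = 0.27), and without it the gene passed (0.0027). Col7a1, which anchors epithelium to the tissue below, was at 2.19 to 14.6 CPM in all 6 libraries (-0.62 ± 0.73, adjusted p = 0.82).

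The multiplexin genes, whose proteins join basement membranes to the matrix and release endostatin-like fragments, did not pass the threshold. Col18a1 was the best expressed member with a higher mean in epithelium. It had 30.3, 98.1 and 106 CPM in muscle and 222, 58.7 and 84.7 CPM in epithelium. The higher mean rests on epithelium replicate 1: the log2 fold change was -0.64 ± 0.57 (adjusted p = 0.71, edgeR) and became 0.14 without that library. RefSeq lists more than 1 start for this gene, and counts per gene do not separate their transcripts. Col15a1 had 1.29, 6.84 and 2.98 CPM in muscle and 0.33, 2.61 and 1.88 CPM in epithelium (1.21 ± 1.23, adjusted p = 0.77).

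Of the 4 transmembrane collagen genes, 2 were higher in muscle. Col23a1 had 114, 69.5 and 131 CPM in muscle and 2.36, 18.1 and 7.96 CPM in epithelium (log2 fold change 3.49 ± 0.65, adjusted p = 0.0098, edgeR). Its call was lost without epithelium replicate 3 (0.062). Col25a1, known for its role in the innervation of skeletal muscle, had 89.8, 115 and 93.6 CPM in muscle and 17.0, 26.2 and 10.7 CPM in epithelium (2.47 ± 0.34, adjusted p = 0.0023). Col13a1, a collagen of the neuromuscular junction, had 14.4, 29.0 and 38.8 CPM in muscle and 1.64, 14.8 and 4.17 CPM in epithelium. Muscle replicate 1 was just under epithelium replicate 2 (2.01 ± 0.73, adjusted p = 0.13, edgeR), and without epithelium replicate 2 the gene passed (0.0076). It also passed with the replicate number as a block (0.043), though those numbers were not taken as pairs. Col17a1, the hemidesmosome collagen of stratified and basal epithelium, had 3.34 to 8.99 CPM in muscle and 3.57 to 12.4 CPM in epithelium (log2 fold change -0.03 ± 0.67, adjusted p = 0.99).

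Col26a1 had the lowest adjusted p of all members. This gene of a short secreted collagen had 274, 158 and 259 CPM in muscle and 21.97, 36.6 and 13.9 CPM in epithelium (log2 fold change 3.26 ± 0.41, adjusted p = 0.0015, edgeR). Both groups were narrow beside the gap between them. Col28a1, a collagen of peripheral glia, had 2, 70 and 31 counts in muscle replicates 1 to 3 and 0, 86 and 55 counts in epithelium replicates 1 to 3. Its highest values again were in libraries with many receptor counts (-0.84 ± 2.03, adjusted p = 0.93).

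Col5a1, Col6a1, Col9a1, Col25a1 and Col26a1 were called higher in muscle with all libraries and in each of the 14 alternative fits. Their adjusted p ranged up to 0.015, 0.033, 0.047, 0.017 and 0.017 (edgeR or DESeq2). Of the 23 members not called, 7 passed, higher in muscle, in at least 1 alternative, and no member was called higher in epithelium in any of the 14. The values nearest the threshold of 0.05 were those of Col1a1 (adjusted p = 0.036) inside it and Col6a6 and Col8a1 (0.056 each) outside it.

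The median of the called collagens and that of the smooth muscle markers differed in how muscle replicate 2 stood to the other muscle libraries. As a median over the 15 called genes, levels were 90.0%, 102% and 112% of the muscle mean in muscle replicates 1 to 3. For 10 smooth muscle markers, such as Acta2 and Myh11, the medians were 128%, 27.2% and 143%. Muscle replicate 2 thus had the lowest median of smooth muscle markers and a middle one of collagens. Single collagens varied: Col6a1, Col6a2, Col23a1 and Col26a1 were lowest in that library too, and Col9a1, Col9a2, Col16a1 and Col25a1 were highest there. In epithelium replicates 1 to 3 the called collagens stood at 4.52%, 23.1% and 5.32% of their muscle mean. The smooth muscle markers stood at 0.90%, 1.79% and 0.70% there, and all 10 were higher in muscle. For 10 markers of fibroblasts and perichondrium, among them Pdgfra, Prrx1 and Dlk1, the medians were 94.4%, 85.3% and 116% in muscle and 6.42%, 27.8% and 5.64% in epithelium. Of these 10 markers 5 were called, all with the higher level in muscle. Among the muscle libraries, Pdgfra, Tcf21, Foxf1, Tnmd and Scx were lowest in replicate 2. Dpt, Twist2, Meox2, Prrx1 and Dlk1 were lowest in replicate 1. Scx, a tendon factor gene of the list, was below in every muscle library, with 3.53, 1.65 and 4.35 CPM against 22.4, 14.3 and 5.63 CPM in epithelium (log2 fold change -2.15 ± 0.63, adjusted p = 0.065, edgeR). Their sum was 1140 to 1497 CPM in muscle and 74.9 to 343 CPM in epithelium. None of the 10 was at 0 in a library. Their part in the collagen levels of either group was not tested.

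**Figure D3:**
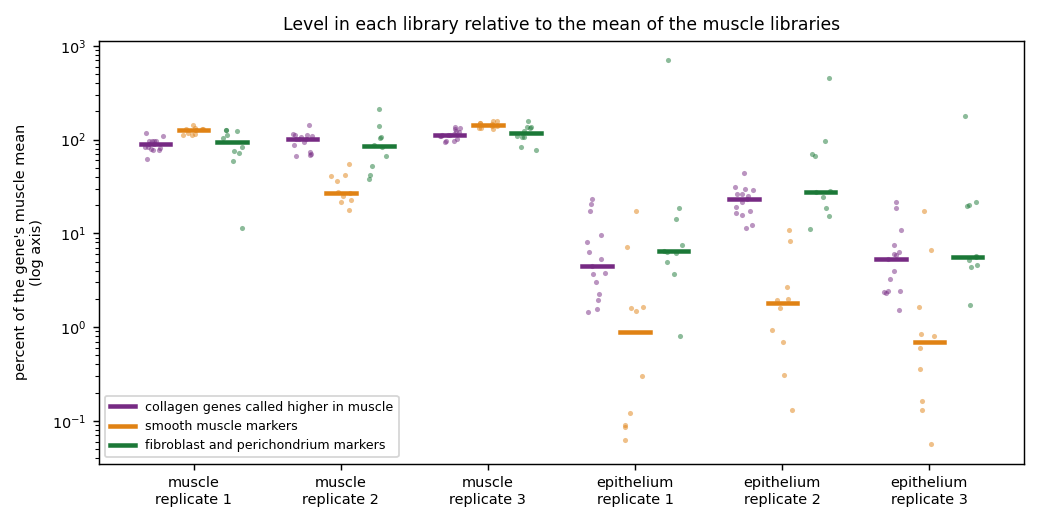
Level of each gene in each library as a percent of its mean over the muscle libraries, on a log axis, for the 15 called collagen genes, 10 smooth muscle markers and 10 markers of fibroblasts and perichondrium, with bars at the medians. In epithelium replicate 2 the medians are 23.1%, 1.79% and 27.8% in that order, and in muscle replicate 2 they are 102%, 27.2% and 85.3%.

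Markers of other cell types the sorts could hold were summed in the same way. Epithelial markers summed to 14.0 to 29.4 CPM in muscle and 3485 to 4958 CPM in epithelium, and all 10 were higher in epithelium. Endothelial markers summed to 33.5 to 61.1 CPM in muscle and 1.38 to 48.6 CPM in epithelium, with 1 of 7 called, Esam, higher in muscle. Esam alone held 28.85, 20.4 and 28.8 CPM in the muscle libraries. Each of the other endothelial markers overlapped between the groups. Cdh5 and Emcn were at 0 in epithelium replicate 1, Cldn5 was at 0 in muscle replicate 1, and Tie1 was at 0 in both of these libraries. Immune markers summed to 2.81, 38.5 and 9.28 CPM in muscle replicates 1 to 3 and 3.59, 29.8 and 17.7 CPM in those of epithelium. Neural and glial markers summed to 22.5, 45.1 and 19.3 CPM and to 31.4, 69.7 and 41.7 CPM. Both sums were higher in muscle replicate 2 and epithelium replicates 2 and 3, the libraries with many receptor counts, than in the others. The reason was not tested. No gene of the latter lists was called (edgeR), with 0 of 6 and 1 of 7 at an unadjusted p under 0.05, and DESeq2 counts were not taken for them. Of 5 mesothelial markers Krt19, which airway epithelium also expresses, was the 1 called, higher in epithelium. Among erythroid markers the 4 globin genes are listed at 0 in every library and give no measure of erythroid cells here. Alas2 was at 0.67 to 2.14 CPM and was not called.

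Levels of chains that share a protein were compared per length, as CPM per kb of the principal mRNA in GENCODE M21. In muscle the highest member was Col3a1 (697 CPM per kb), followed by Col1a2 (437), Col1a1 (386), Col6a1 (282) and Col6a2 (259). In epithelium the order was Col3a1 (57.1), Col2a1 (43.8), Col1a2 (40.3), Col1a1 (39.8) and Col18a1 (25.4), but this order of means rests on epithelium replicate 2, where Col3a1 had 133.9 CPM per kb. In epithelium replicates 1 and 3 Col2a1 was highest (57.6 and 30.2), and Col3a1 (21.0 and 16.4) was below both Col18a1 (46.4 and 17.7) and Col5a1 (25.2 and 19.9). Type I collagen is usually a trimer with more of the chain from Col1a1 than from Col1a2. The ratio of the Col1a1 level to the Col1a2 level was 0.88 ± 0.08 in muscle and 0.92 ± 0.09 in epithelium (SD, n = 3 each). It was at most 1.02 in any library. With the length of all annotated exons instead, the mean muscle ratio was 1.85, so that the ratio depends on the length used.

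The ratio of Col6a1 to Col6a2 in muscle was 1.10 ± 0.05 (SD, n = 3) per length of the principal mRNA and 2.17 with the length of all annotated exons, so that it too depends on the length used. Col6a1 stood 8.34 ± 1.56 times above Col6a3 in muscle and 6.05 ± 0.46 times in epithelium. With all annotated exons the muscle mean was 10.4. The ratio of Col5a1 to Col5a2, whose muscle mean of 2.20 was 3.15 with all annotated exons, was 2.09, 2.38 and 2.12 in muscle and 8.15, 1.87 and 6.99 in epithelium replicates 1 to 3. Epithelium replicate 2 had a ratio like that of muscle, and the other epithelial libraries had mostly Col5a1. The ratio of Col9a1 to Col2a1 was 1.21, 0.54 and 0.77 in muscle and 0.04, 0.24 and 0.06 in epithelium. These did not overlap, with more Col2a1 for each Col9a1 in all epithelial libraries. The muscle mean of this ratio was 0.84, and 1.15 with all annotated exons, so whether it is above 1 depends on the length used. No p is given for a ratio, since an exact permutation test of 3 libraries against 3 cannot go below 0.10.

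**Figure D4:**
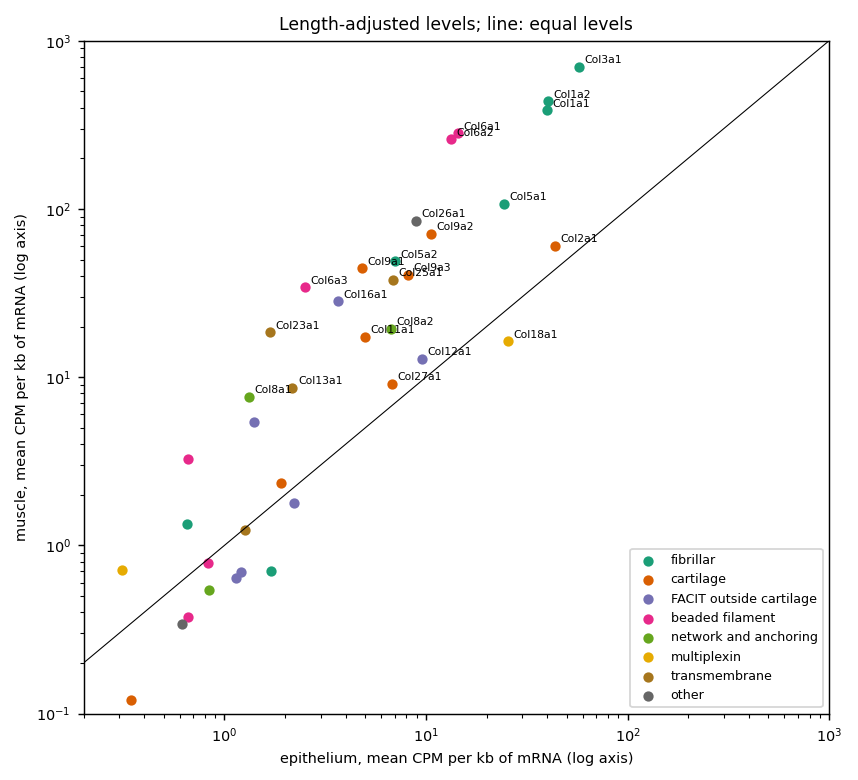
Mean level of each collagen gene per kb of mRNA in muscle (vertical) against epithelium (horizontal), both on log axes, with the line of equal levels and colours for the subgroups. Col3a1, Col1a1, Col1a2, Col6a1 and Col6a2 lie well above the line at the top, Col2a1 lies near it at 60.2 and 43.8 CPM per kb, and Col18a1 lies below it.

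Genes that act on collagen chains were taken from 7 lists of 83 genes in all. Among the 81 tested, muscle had the higher level for 34 and epithelium for 1, with a median log2 fold change of 1.28. Over all tested genes 6.58% and 4.11% were called in these directions. Enzymes that modify chains in the endoplasmic reticulum gave 5 of 15 higher in muscle. The largest changes were in the lysyl hydroxylase gene Plod1 (log2 fold change 2.52, adjusted p = 0.0018, edgeR) and the prolyl 3-hydroxylase genes P3h3 (2.16, 0.020) and P3h1 (1.63, 0.019). The prolyl 4-hydroxylase genes P4ha1 (0.90, adjusted p = 0.051) and P4hb (0.71, 0.10) were not called, nor were P4ha2 (0.73, 0.088) and P4ha3, which was lower in every muscle library (-0.98, 0.073). Chaperone and export genes gave 8 of 12. Fkbp7, a prolyl isomerase gene, came first (log2 fold change 2.54, adjusted p = 0.0012, edgeR), and the coat protein genes Sec24d (2.39, 0.0010) and Sec23a (2.17, 0.0012), which help to carry procollagen, came next. Serpinh1, which encodes the collagen chaperone HSP47, was also called (1.63, adjusted p = 0.0048).

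Outside the cell the same direction was seen in the lists of processing, cross-linking and fibril assembly. Of 10 procollagen processing genes 3 were higher in muscle: Pcolce (log2 fold change 4.15, adjusted p = 0.00045, edgeR), which speeds the removal of the C-terminal propeptide, Bmp1 (2.35, 0.0025), the protease that removes it, and Adamts3 (1.28, 0.014). Of 5 lysyl oxidase genes, which cross-link collagen, 4 were higher in muscle. Loxl2 had 3.10 (adjusted p = 0.00086, edgeR), Lox 2.96 (0.0085) and Loxl1 2.72 (0.0023) as log2 fold changes. Of 15 genes of fibril-associated proteins 7 were higher in muscle, led by Tnc (5.04, adjusted p = 0.00068, edgeR), Thbs2 (4.21, 0.015) and Bgn (4.17, 0.020). Fmod, which encodes the fibril-binding proteoglycan fibromodulin, was the 1 gene higher in epithelium. It had 43.9, 54.3 and 48.8 CPM in muscle and 264, 117 and 253 CPM in epithelium, without overlap (-2.11 ± 0.34, adjusted p = 0.0045, edgeR).

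Among 9 tested collagen receptor and uptake genes 4 were higher in muscle. Itga1, the alpha chain of a collagen-binding integrin, had 128, 56.4 and 133 CPM in muscle and 0.41, 4.21 and 3.76 CPM in epithelium (log2 fold change 5.30 ± 0.80, adjusted p = 0.0037, edgeR). Ddr2, a receptor kinase for fibrillar collagen, had 4.27 ± 0.58 (adjusted p = 0.0021), while its relative Ddr1 had 96.2 CPM in muscle and 119 in epithelium as means (-0.31, adjusted p = 0.76). Mrc2, which takes up collagen fragments, had 2.36 (adjusted p = 0.0073). Of 15 genes of transcription regulators known to act on collagen genes 3 were called, Zeb2 (3.98, adjusted p = 0.0042, edgeR), Zeb1 (3.90, 0.0088) and Sox9, all higher in muscle. The subunits of the CCAAT-binding factor, Nfya, Nfyb and Nfyc, had log2 fold changes of -0.29, -0.10 and 0.26, none called.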

How the data were processed

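RNA was measured in 6 libraries made with a template-switching kit for low input and transposase fragmentation, per the labels' protocols. The values deposited by the authors are whole numbers, 1 row for each gene symbol, and were taken as raw counts that were not normalized. The submitters' processing notes name Trim Galore, Bowtie2, Cufflinks, DESeq and the build mm10, without roles, and the counting program and annotation are not given in the sources used here. Such libraries carry no molecular identifiers and no strand, so counts include PCR copies and overlapping genes cannot be told apart. Of counts from 1 to 19, 73.8% to 79.6% per library were even, more than were odd. The cause was not tested, and whether each count is a separate fragment is not known. No pair of libraries held equal values in more than 19.7% of rows.

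Counts were analysed in R 4.3.3. The filter was filterByExpr by group and the scaling TMM. The main test was edgeR 4.0.16's quasi-likelihood test of muscle over epithelium (robust, two-sided, no covariate), with Benjamini-Hochberg adjustment and a threshold of 0.05. SE comes from the test statistic. CPM uses TMM-scaled library sizes. Muscle replicates 1 to 3 had depths of 31380201, 17686605 and 49352790 counts. Those of epithelium had 54848820, 11847432 and 25231394, which limits genes of few counts. The script was tested on simulated data. Alternatives used DESeq2 1.42.0, other scalings, no filter, a replicate block, header dates, fewer libraries, and each library left out. 7 list genes were matched through RefSeq synonyms.

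Members and lists were chosen with earlier results of these data known. Values per library are given for each called member and for the 2 best expressed of each subgroup, and were extended to the remaining members after they were seen. From each list the 3 called genes that changed most either way were named, where their average log2 CPM was 2 or more. P4ha1, P4ha2, P4ha3, P4hb, Serpinh1, Ddr1, Nfya, Nfyb, Nfyc and the markers named were added after their values were seen.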

Additional observations from a re-analysis of the deposited data

How the results depend on the processing

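The direction of the 15 calls held in all 14 alternatives. The count of members higher in muscle was 15 with all libraries, 8 with library size only and 7 to 20 when 1 library was left out. That scaling moved the median log2 fold change of all genes from -0.10 to -0.33 and the share of all calls higher in muscle from 61.5% to 42.0%. No member was called in epithelium under any setting. Over all genes 2071 were called, 2480 with library size only, 3539 with DESeq2, 3178 with the header date as a term and 1169 to 2573 without 1 library. List genes higher in muscle numbered 23 to 42 over the same alternatives, against 34, a count added after seeing the data. Library size only ended the calls of Col1a1, Col1a2, Col3a1, Col5a2, Col9a2, Col11a1 and Col16a1, DESeq2 size factors those of Col1a1 and Col16a1, and no filter that of Col1a1.

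With the replicate number as a block 17 members were higher in muscle, and 12.5% of all tested genes were called in either direction. Same-numbered libraries deviated together at a correlation of 0.59, 0.73 and -0.57, and muscle replicate 3 correlated best with epithelium replicate 1, so the numbers were not taken as pairs. With the replicate block the log2 fold change of Col17a1 was 0.055, that of Col19a1 0.24 and that of Col6a4 0.30, each negative without it.

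13 members, none of them called, changed sign. On the 3 libraries with few receptor counts the log2 fold change was 0.78 for Col10a1, -0.037 for Col12a1, 0.47 for Col17a1, 4.32 for Col19a1, 0.28 for Col20a1, 7.05 for Col28a1, -0.53 for Col2a1, 0.79 for Col5a3, 2.56 for Col6a4, 3.04 for Col6a5 and 0.70 for Col7a1. Day 16 alone gave -0.024 for Col2a1 and 0.36 for Col17a1, which had 0.14 with the date as a term and 0.0033 with no filter. Without 1 library values ranged from -0.68 to 1.51 for Col11a2, from -0.32 to 0.67 for Col17a1, from -1.05 to 0.14 for Col18a1, from -1.84 to 0.87 for Col19a1, from -2.14 to 0.19 for Col20a1, from -2.56 to 0.61 for Col28a1, from -1.77 to 1.03 for Col6a4, from -1.93 to 0.13 for Col6a5 and from -1.05 to 0.23 for Col7a1. The cause was not tested. Genes of a few counts are limited by depth.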
